A study of Mus musculus with 6 samples.

Results

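The genes described here are the transporters and enzymes of glycolysis and lactate handling in the mouse heart: 3 glucose transporters, the glycolytic isoenzymes and their regulators, the lactate dehydrogenases, the monocarboxylate transporters and 3 side-branch enzymes. They are a list of named genes, drawn up by function with earlier results of these data known, and number 33 of the 35498 genes to which the deposited transcripts could be summed. All 33 passed the filter on low counts, which left 14237 genes for testing. Beside each gene, the ratio of the muscle or heart isoform to the ubiquitous or other isoform was computed within each library, for 12 isoform pairs.

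Glycolysis takes glucose into the cell, phosphorylates it, splits it into triose phosphates and converts these to pyruvate, which can be reduced to lactate and exported or burned in mitochondria. Many of its steps are shared between isoenzymes encoded by separate genes. Striated muscle uses its own forms, such as beta-enolase and the muscle phosphoglycerate mutase, whereas fibroblasts, macrophages and most other cells use the ubiquitous forms. The adult heart imports glucose largely through the insulin-responsive transporter Slc2a4 and oxidises lactate with the help of the heart-type lactate dehydrogenase subunit Ldhb and the carrier Slc16a1.

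Poly-A RNA was measured in heart tissue of C57BL/6J mice aged 8 to 10 weeks, taken 7 days after the left anterior descending coronary artery had been tied off. The tissue came from the ventricle beyond the ligature, and every mouse was fed tamoxifen from surgery to collection. Both groups had the genotype Postn CreER+/-, an inducible recombinase driven by the Postn (periostin) promoter, which is active in fibroblasts after injury, so that cells without periostin keep Runx1. The CTL group (n = 3) was Runx1 WT and the RUNX1 FB-KO group (n = 3) was Runx1 fl. CTL replicate 1 and RUNX1 FB-KO replicates 2 and 3 were female and the others were male. The labels name the samples as replicates without stating how each was collected, so p-values measure the spread between these samples. Values below are given in the order of replicates 1, 2 and 3 of each group.

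The libraries held 16598561 to 19987279 estimated reads. Runx1 itself was at 96.4, 86.9 and 85.5 CPM (reads per 1000000 after scaling by TMM, the trimmed mean of M values, which assumes that most genes do not differ) in CTL and at 17.5, 10.9 and 67.4 CPM in RUNX1 FB-KO, so the library labelled RUNX1 FB-KO replicate 3 stood much nearer to CTL than the other 2 (edgeR adjusted p = 0.154). The floxed exons are not given in the sources used here, and gene-level reads check the deletion only in part. Mitochondrially encoded transcripts took 5.36% to 7.11% of reads in CTL and 10.37% to 24.49% in RUNX1 FB-KO. The 10 cardiomyocyte markers summed to 11192, 12378 and 9603 CPM in CTL and to 75055, 97263 and 23853 CPM in RUNX1 FB-KO. All 10 were above CTL in every RUNX1 FB-KO library, as were 20.2% of all genes tested. The 8 fibroblast markers summed to 33510, 35908 and 32577 CPM in CTL and to 10035, 8959 and 28469 CPM in RUNX1 FB-KO. Of the 8, 5 were below CTL in every RUNX1 FB-KO library, as were 18.8% of all genes tested. With library size alone as the scaling, 10.8% of all genes lay above and 39.8% below. The part of these markers in the results on the glycolytic genes was not tested. In whole tissue, more cells of a type and more RNA per cell cannot be told apart.

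The 8 members with the smallest adjusted p, Eno3, Slc2a4, Ldhb, Pgam2, Pfkm, Slc16a1, Hk2 and Pfkfb2, are forms typical of muscle or heart. They lay above CTL in all 3 RUNX1 FB-KO libraries, with log2 fold changes between 1.74 and 2.83. The other member of each of their isoform pairs lay lower (Pfkfb3), overlapped (Slc2a1, Pfkp, Pgam1, Eno1, Slc16a3) or was higher by less (Hk1, Pfkl, Ldha). With library size alone as the scaling, the groups of Hk1, Pfkl and Ldha overlapped too, with log2 fold changes of 0.10, 0.10 and 0.16. Not every muscle form was among the 8: Pfkfb1, of liver and muscle, overlapped. Aldoa, the muscle and general aldolase, and Ldha, the muscle lactate dehydrogenase subunit, were also outside the 8. With TMM both lay above CTL throughout but by less, with log2 fold changes of 1.23 and 0.67. None of the 33 passed the threshold, and neither did any other gene: edgeR's quasi-likelihood test with Benjamini-Hochberg adjustment over all genes called 0 members and 0.0% of genes at an adjusted p of 0.05. These 8 members were at the smallest adjusted p of the whole table, 0.0682. By position alone, 16 members had all RUNX1 FB-KO values above all CTL values, against 20.2% of all genes tested, and 4 had them all below, against 18.8%. With library size alone these counts were 11, against 10.8% of all genes, and 7, against 39.8%. At an unadjusted p under 0.05, edgeR had 16 members higher and 4 lower, against 19.3% and 13.1% of all genes. The median log2 fold change of the members was 0.48, against −0.06 for all genes tested.

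**Figure D1:**
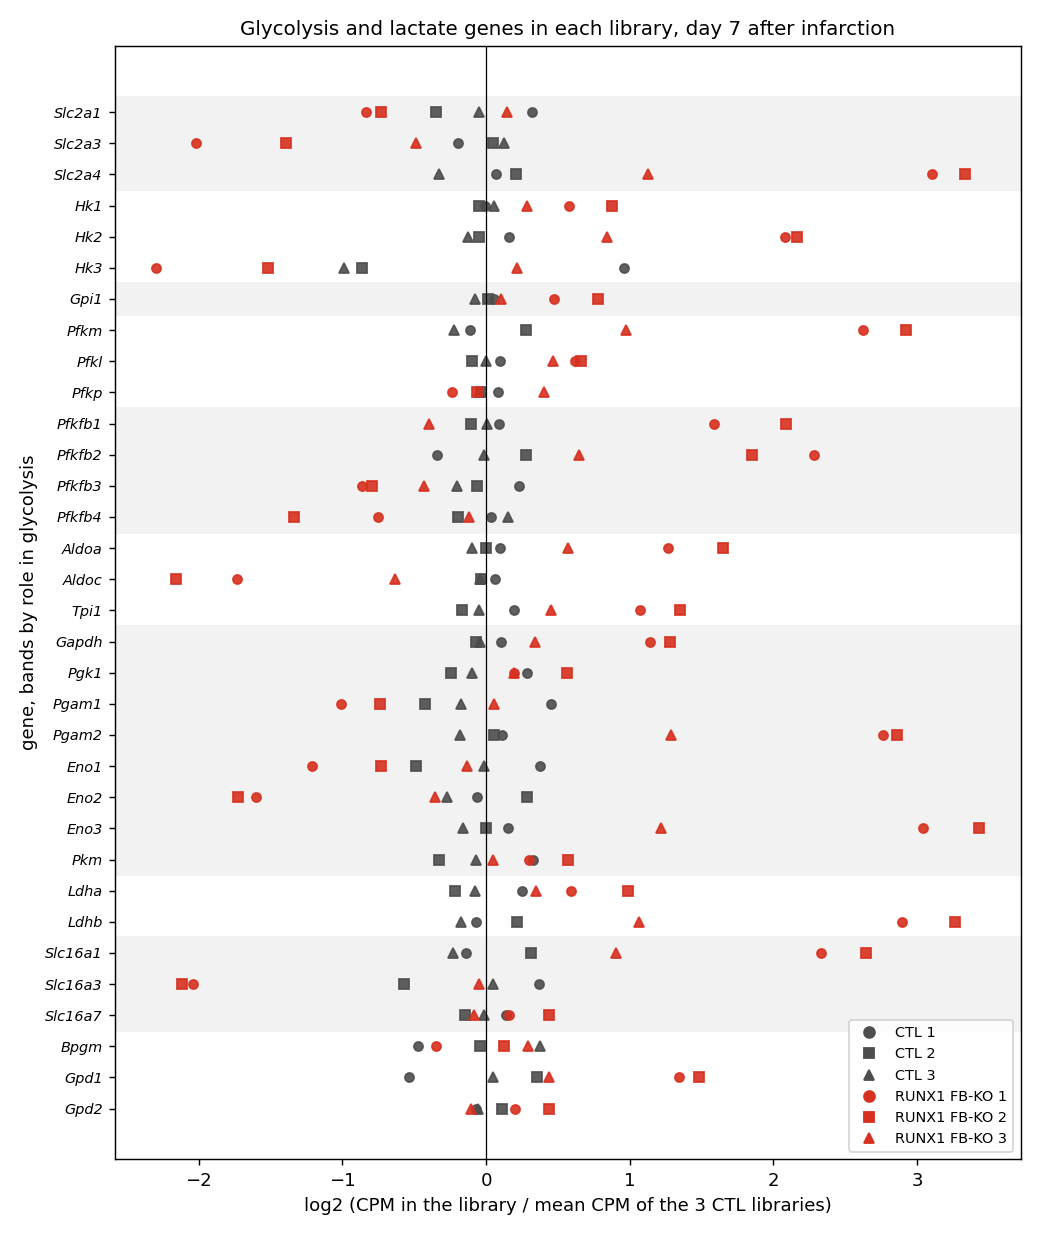
Each of the 33 members in each of the 6 libraries, as log2 of its CPM over the mean CPM of the 3 CTL libraries, with rows ordered by role (grey points CTL, red points RUNX1 FB-KO, shapes for replicates). For Eno3, Slc2a4, Ldhb, Pgam2 and Pfkm the 3 RUNX1 FB-KO points lie to the right of all CTL points, and for Slc2a3, Aldoc, Pfkfb3 and Eno2 to the left, with replicate 3 nearest to CTL.

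The library labelled RUNX1 FB-KO replicate 3 lay between the CTL mean and both other RUNX1 FB-KO libraries for 25 of the 33 members. The count over all genes is not given here, so this position cannot be called particular to the members. Without RUNX1 FB-KO replicate 3, edgeR called 17 members higher and 9 lower at an adjusted p under 0.05. It then also called 25.1% of all genes higher and 22.5% lower. Without CTL replicate 1 or CTL replicate 2 instead, edgeR called 0 members and 0 genes. DESeq2 on the filtered genes, with all 6 libraries, called 15 members higher and Slc2a3 and Pfkfb3 lower, against 16.0% and 6.08% of all genes. Without the filter on low counts, edgeR called 8 members higher and 0 lower, against 4.21% and 0.193% of genes. The direction of weakly differing members depended on the scaling: with library size alone in place of TMM, the median over all genes moved from −0.06 to −0.52 and the member median from 0.48 to −0.03.

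Glucose enters through the Slc2a family. Slc2a4 (GLUT4, chr11:69942539-69948188, GRCm38), the insulin-responsive transporter of muscle, heart and fat, was at 49.9, 54.9 and 37.9 CPM in CTL and at 409, 479 and 104 CPM in RUNX1 FB-KO. All RUNX1 FB-KO libraries were above CTL, with replicate 3 at less of a distance than the others. Slc2a4 thus had a log2 fold change of 2.80 ± 0.55 (SE; edgeR adjusted p = 0.0682), and 3.27 ± 0.19 without RUNX1 FB-KO replicate 3 (edgeR adjusted p = 7.37e-05). Without CTL replicate 1 instead, its log2 fold change was 2.83 ± 0.71 (edgeR adjusted p = 0.223). Slc2a1 (GLUT1), the transporter of basal uptake found in most cells, was at 38.0, 23.9 and 29.4 CPM in CTL and at 17.0, 18.3 and 33.7 CPM in RUNX1 FB-KO, where replicates 1 and 2 lay below CTL and replicate 3 within it (log2 fold change −0.40 ± 0.31 SE, edgeR adjusted p = 0.375). Slc2a3 (GLUT3), a high-affinity transporter of neurons and leukocytes, was at 7.87, 9.33 and 9.85 CPM in CTL and at 2.23, 3.44 and 6.43 CPM in RUNX1 FB-KO. It lay below CTL in every RUNX1 FB-KO library, with a log2 fold change of −1.15 ± 0.40 (SE; edgeR adjusted p = 0.114).

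Within each library, the ratio of Slc2a4 to Slc2a1 in reads per effective length (the number of positions at which a fragment can start) was 1.49, 3.16 and 1.62 in CTL and 29.5, 32.5 and 3.72 in RUNX1 FB-KO. The groups did not overlap, although CTL replicate 2 and RUNX1 FB-KO replicate 3 were close. The mean log2 ratio was 2.96 higher in RUNX1 FB-KO, and 3.98 higher without its replicate 3. For this and the other ratios, the exact permutation test over the 20 splits of 6 libraries is two-sided and cannot give a p below 0.1. This exact permutation test gave p = 0.1 for 10 of the 12 ratios and p = 0.2 for Pfkm to Pfkl and Slc16a1 to Slc16a3, so none can pass a threshold of 0.05. These ratios need no scaling between libraries.

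**Figure D2:**
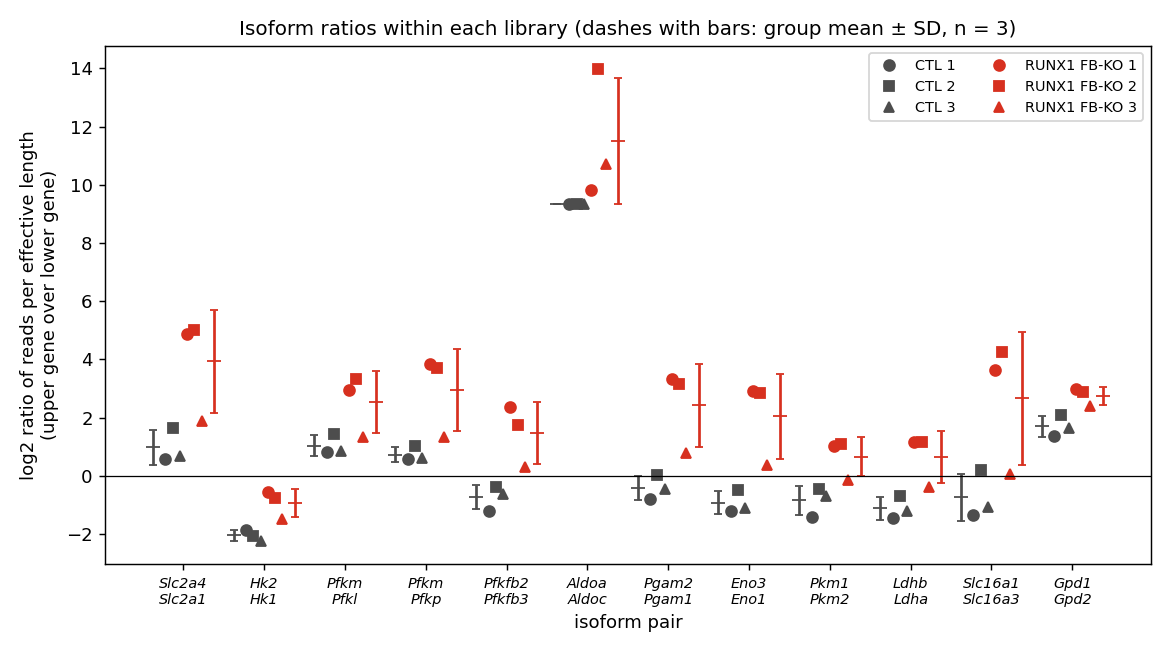
Log2 ratio of the upper to the lower isoform within each library, in reads per effective length, for the 12 pairs (grey points CTL, red points RUNX1 FB-KO, dashes with bars for the group mean and SD, n = 3). The RUNX1 FB-KO means are the higher of each pair, and RUNX1 FB-KO replicate 3 lies within the range of CTL for Pfkm to Pfkl and for Slc16a1 to Slc16a3.

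Hexokinases trap glucose as glucose 6-phosphate. Hk2 (chr6:82725025-82774454), the form of insulin-responsive tissues, was at 69.4, 59.9 and 56.8 CPM in CTL and at 262, 278 and 111 CPM in RUNX1 FB-KO, a log2 fold change of 1.81 ± 0.35 (SE; edgeR adjusted p = 0.0682). Hk1, the form of most cells, was at 169, 164 and 177 CPM in CTL and at 254, 312 and 207 CPM in RUNX1 FB-KO, a log2 fold change of 0.60 ± 0.20 (SE; edgeR adjusted p = 0.112). Both lay above CTL in every RUNX1 FB-KO library, Hk2 by the wider margin. The ratio of Hk2 to Hk1 was 0.278, 0.24 and 0.215 in CTL and 0.678, 0.593 and 0.359 in RUNX1 FB-KO, so that Hk1 had more transcripts per length than Hk2 in all 6 libraries.

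Hk3, the hexokinase of myeloid cells, was at 30, 8.48 and 7.76 CPM in CTL and at 3.14, 5.39 and 17.9 CPM in RUNX1 FB-KO. CTL replicate 1 was highest and the groups overlapped (log2 fold change −0.79 ± 0.77 SE, edgeR adjusted p = 0.476). Without CTL replicate 1 the value turned to 0.13, and without RUNX1 FB-KO replicate 3 it was −1.82. The 8 macrophage markers summed to 4829, 2998 and 3236 CPM in CTL and to 1267, 1222 and 3069 CPM in RUNX1 FB-KO, again highest in CTL replicate 1 and, within RUNX1 FB-KO, in replicate 3. Of the 8, 4 were below CTL in every RUNX1 FB-KO library, as were 18.8% of all genes tested. The 6 neutrophil markers summed to 52.2, 31.1 and 26.9 CPM in CTL and to 7.59, 22.3 and 24.5 CPM in RUNX1 FB-KO, and the part of either cell type was not tested.

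Gpi1, which isomerises glucose 6-phosphate to fructose 6-phosphate, was at 485, 470 and 442 CPM in CTL and at 648, 801 and 502 CPM in RUNX1 FB-KO. It lay above CTL in every RUNX1 FB-KO library, with a log2 fold change of 0.48 ± 0.25 (SE; edgeR adjusted p = 0.208) that was −0.03 when scaled by library size alone.

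Phosphofructokinase commits fructose 6-phosphate to glycolysis. Pfkm (chr15:98092589-98132451), the muscle subunit, was at 149, 195 and 138 CPM in CTL and at 991, 1223 and 316 CPM in RUNX1 FB-KO, a log2 fold change of 2.39 ± 0.50 (SE; edgeR adjusted p = 0.0682). Pfkl, the liver subunit, was at 99.9, 87.3 and 93.7 CPM in CTL and at 144, 148 and 129 CPM in RUNX1 FB-KO, a log2 fold change of 0.58 ± 0.15 (SE; edgeR adjusted p = 0.0753). Pfkp, the platelet subunit, was at 124, 114 and 113 CPM in CTL and at 99.4, 112 and 155 CPM in RUNX1 FB-KO. Pfkm and Pfkl lay above CTL throughout, whereas Pfkp overlapped, with a log2 fold change of 0.06 that was −0.04 with sex as a covariate, −0.35 with library size alone and −0.10 without RUNX1 FB-KO replicate 3. Per effective length, Pfkm made up 44.6%, 53.7% and 45.3% of the 3 subunits in CTL and 83.3%, 85.1% and 55.8% in RUNX1 FB-KO. The ratio of Pfkm to Pfkp was 1.48, 2.03 and 1.52 in CTL and 14.2, 13.1 and 2.51 in RUNX1 FB-KO, without overlap. That of Pfkm to Pfkl, 1.76, 2.70 and 1.82 against 7.67, 10.1 and 2.54, overlapped between CTL replicate 2 and RUNX1 FB-KO replicate 3.

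The bifunctional enzymes make and degrade fructose 2,6-bisphosphate, the activator of phosphofructokinase. Pfkfb2 (chr1:130689182-130729253), the heart form, was at 15.4, 23.7 and 19.3 CPM in CTL and at 95.1, 70.3 and 30.5 CPM in RUNX1 FB-KO, a log2 fold change of 1.74 ± 0.41 (SE; edgeR adjusted p = 0.0682). Pfkfb3, the inducible form of proliferating and inflammatory cells, had the opposite sign: 54.8, 44.8 and 40.7 CPM in CTL against 25.7, 27.0 and 34.7 CPM in RUNX1 FB-KO, a log2 fold change of −0.68 ± 0.19 (SE; edgeR adjusted p = 0.0803). Neither gene's groups overlapped. The ratio of Pfkfb2 to Pfkfb3 was 0.438, 0.773 and 0.647 in CTL and 5.22, 3.34 and 1.23 in RUNX1 FB-KO, so the more abundant transcript per length was Pfkfb3 in each CTL library and Pfkfb2 in each RUNX1 FB-KO library. Pfkfb1, a form of liver and muscle, was at 3.42, 2.99 and 3.23 CPM in CTL and at 9.69, 13.7 and 2.45 CPM in RUNX1 FB-KO, where replicate 3 lay below CTL. Pfkfb4, a hypoxia-inducible form, was at 16.8, 14.3 and 18.2 CPM in CTL and at 9.76, 6.48 and 15.1 CPM in RUNX1 FB-KO. The groups overlapped for both, with log2 fold changes of 1.41 for Pfkfb1 and −0.65 for Pfkfb4.

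Aldolase splits the 6-carbon sugar and triose phosphate isomerase interconverts the products. Aldoa, the muscle and general form, was at 967, 903 and 845 CPM in CTL and at 2178, 2833 and 1341 CPM in RUNX1 FB-KO, a log2 fold change of 1.23 ± 0.35 (SE; edgeR adjusted p = 0.0858). Aldoc, the brain form, was at 1.82, 1.70 and 1.69 CPM in CTL and at 0.524, 0.39 and 1.12 CPM in RUNX1 FB-KO. Its groups did not overlap (log2 fold change −1.32 ± 0.51 SE, edgeR adjusted p = 0.134), but it rested on 41, 38 and 34 reads in CTL and 8, 5 and 22 in RUNX1 FB-KO. With the effective-length offset it was −0.64 ± 0.85 (SE; edgeR adjusted p = 0.614). Aldoa made up at least 99.8% of aldolase transcripts per length in every library. The ratio of the pair, with a mean log2 difference of 2.17, moved to 0.95 without RUNX1 FB-KO replicate 2 and to 3.01 without its replicate 1. Tpi1, triose phosphate isomerase, was at 367, 285 and 309 CPM in CTL and at 671, 816 and 437 CPM in RUNX1 FB-KO, above CTL throughout, with a log2 fold change of 1.0 ± 0.29 (SE; edgeR adjusted p = 0.0871).

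The payoff phase yields ATP and NADH. Gapdh, glyceraldehyde 3-phosphate dehydrogenase and a common reference gene, was at 2336, 2062 and 2109 CPM in CTL and at 4782, 5281 and 2750 CPM in RUNX1 FB-KO. All RUNX1 FB-KO libraries were above CTL, with a log2 fold change of 0.98 ± 0.38 (SE; edgeR adjusted p = 0.135) that was 0.45 with library size alone. Pgk1, phosphoglycerate kinase, was at 481, 333 and 370 CPM in CTL and at 452, 583 and 451 CPM in RUNX1 FB-KO. Its groups overlapped, and its log2 fold change of 0.33 was −0.16 with library size alone.

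Phosphoglycerate mutase, which moves the phosphate within the triose, has a muscle gene and a general gene. Pgam2 (chr11:5801640-5803733), the muscle mutase, was at 65.3, 62.9 and 53.5 CPM in CTL and at 412, 439 and 148 CPM in RUNX1 FB-KO, all above CTL. This gave Pgam2 a log2 fold change of 2.46 ± 0.42 (SE; edgeR adjusted p = 0.0682). Pgam1 (chr19:41911923-41918660), the general or brain form, was at 292, 159 and 189 CPM in CTL and at 106, 128 and 221 CPM in RUNX1 FB-KO, with a log2 fold change of −0.49 ± 0.35 (SE; edgeR adjusted p = 0.341). CTL replicate 1 was highest for Pgam1, and RUNX1 FB-KO replicate 3 lay inside the CTL values. Pgam2 made up 36.4%, 50.5% and 42.0% of the mutase transcripts per length in CTL and 90.9%, 90.0% and 63.3% in RUNX1 FB-KO. The ratio of Pgam2 to Pgam1 was thus 0.573, 1.02 and 0.725 in CTL and 9.96, 8.95 and 1.72 in RUNX1 FB-KO, with no overlap.

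Enolase, which makes phosphoenolpyruvate, has 3 genes. Eno3 (chr11:70657202-70662513), the muscle beta-enolase, was at 169, 152 and 136 CPM in CTL and at 1252, 1642 and 354 CPM in RUNX1 FB-KO, a log2 fold change of 2.83 ± 0.55 (SE; edgeR adjusted p = 0.0682) and 3.29 ± 0.19 without RUNX1 FB-KO replicate 3 (edgeR adjusted p = 7.37e-05). Eno1, the general alpha-enolase, was at 538, 295 and 409 CPM in CTL and at 179, 249 and 378 CPM in RUNX1 FB-KO. Eno1 overlapped between the groups, with a log2 fold change of −0.62 ± 0.35 (SE; edgeR adjusted p = 0.241) and −0.91 ± 0.28 without RUNX1 FB-KO replicate 3 (edgeR adjusted p = 0.0304). Without CTL replicate 1 instead, the Eno1 value was −0.39 ± 0.38 (edgeR adjusted p = 0.527). Eno2, the neuronal gamma-enolase, was at 9.12, 11.6 and 7.91 CPM in CTL and at 3.14, 2.89 and 7.45 CPM in RUNX1 FB-KO, below CTL throughout, with a log2 fold change of −1.08 ± 0.41 (SE; edgeR adjusted p = 0.134). The 6 Schwann cell and neuron markers summed to 49.3, 28.5 and 28.9 CPM in CTL and to 13.9, 12.4 and 21.2 CPM in RUNX1 FB-KO, and their part was not tested. Eno3 made up 30.1%, 41.1% and 31.5% of enolase transcripts per length in CTL and 88.1%, 87.8% and 55.8% in RUNX1 FB-KO.

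**Figure D3:**
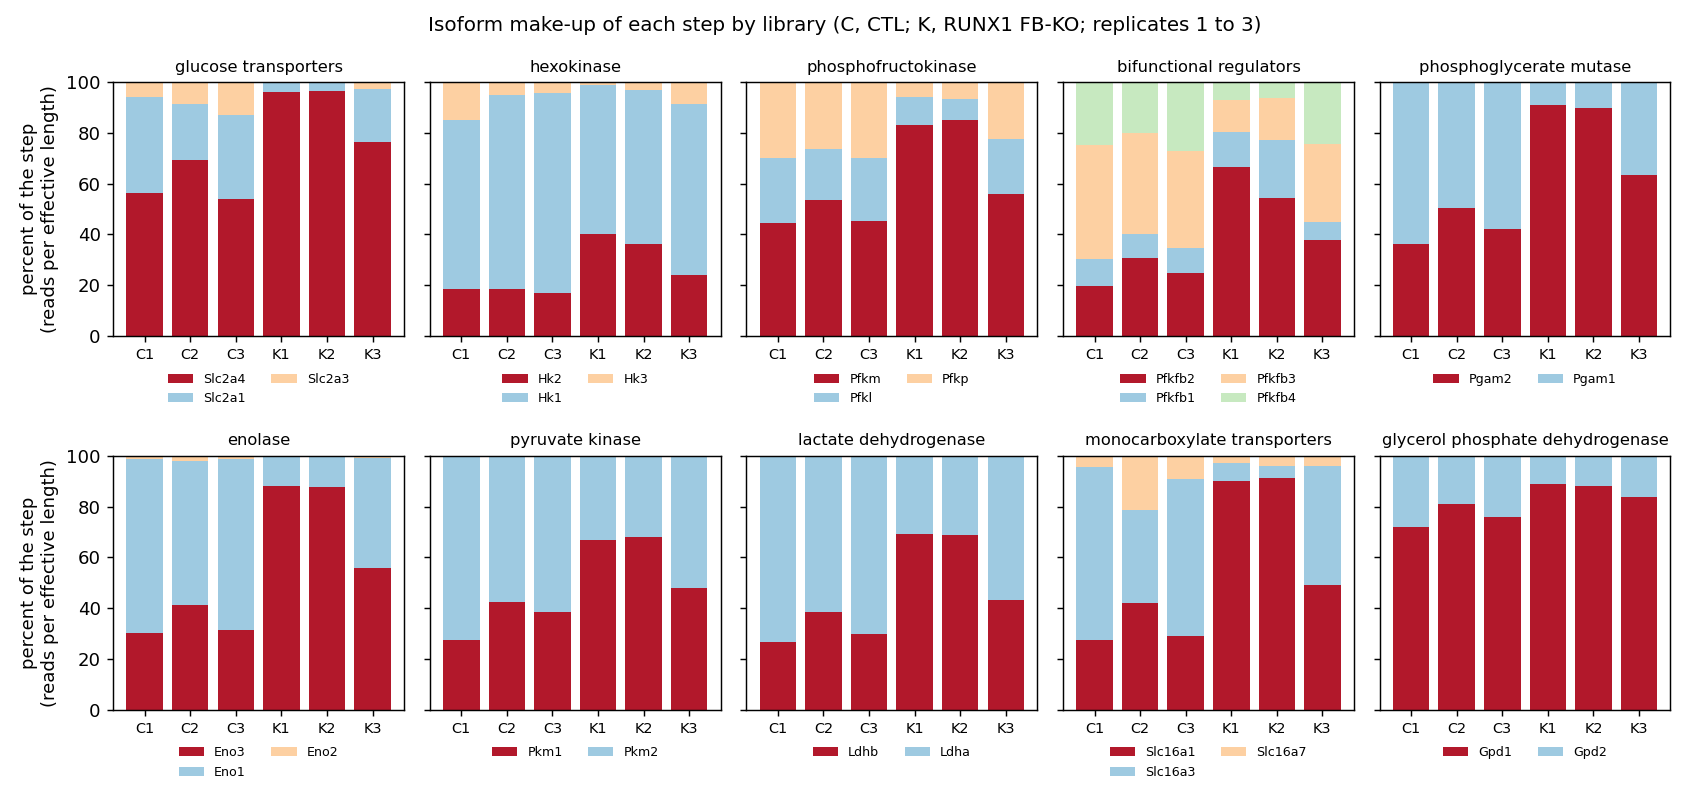
Share of each step's transcripts per effective length that belonged to each isoform, in percent, with 1 bar per library (C for CTL, K for RUNX1 FB-KO). Dark red, the muscle, heart or cytosolic isoform, fills more of the bar in every RUNX1 FB-KO library than in any CTL library for these 10 steps, as for Eno3 at 88.1%, 87.8% and 55.8% against at most 41.1% in CTL.

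Pyruvate kinase makes pyruvate, and its muscle gene Pkm (ENSMUSG00000032294, chr9:59656368-59679375) gives Pkm1 or Pkm2 by use of 1 of 2 coding exons, exon 9 for the adult muscle and brain form Pkm1 and exon 10 for the form of proliferating and most other cells, Pkm2. The exons lie on the plus strand at chr9:59675029-59675195 (exon 9) and chr9:59675568-59675734 (exon 10) of GRCm38. They are shown because they are the coding difference between the isoforms: both are 167 bases long and 61.7% identical, with capitals at the 64 positions where they differ.
Pkm exon 9: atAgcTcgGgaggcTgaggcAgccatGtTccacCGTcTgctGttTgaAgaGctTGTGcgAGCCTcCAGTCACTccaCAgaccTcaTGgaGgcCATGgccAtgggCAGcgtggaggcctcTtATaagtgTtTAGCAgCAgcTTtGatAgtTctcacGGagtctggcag
Pkm exon 10: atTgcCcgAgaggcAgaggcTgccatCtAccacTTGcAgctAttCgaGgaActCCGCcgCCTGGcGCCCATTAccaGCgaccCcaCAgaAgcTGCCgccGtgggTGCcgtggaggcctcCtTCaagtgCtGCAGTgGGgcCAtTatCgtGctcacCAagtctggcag

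As a gene, Pkm was at 1191, 757 and 904 CPM in CTL and at 1171, 1414 and 983 CPM in RUNX1 FB-KO, overlapping, with a log2 fold change of 0.32 ± 0.29 (SE; edgeR adjusted p = 0.449) that was −0.18 with library size alone. Its transcripts differed more than the gene. The exon 9 transcript held 27.4%, 42.5% and 38.5% of the pair's reads per effective length in CTL and 67.0%, 67.9% and 47.8% in RUNX1 FB-KO. The ratio of Pkm1 to Pkm2 was 0.378, 0.739 and 0.625 in CTL and 2.03, 2.12 and 0.915 in RUNX1 FB-KO, so Pkm2 led in every CTL library and still led in RUNX1 FB-KO replicate 3. The mean log2 ratio was 1.5 higher in RUNX1 FB-KO, 1.89 without replicate 3, and 1.45 when a partial exon 9 transcript that keeps an intron was added to Pkm1, an alternative chosen after seeing the data. Salmon assigns reads to transcripts by probability, so the split of the gene's reads is an estimate, and as the Pkm1 and Pkm2 transcripts are 2041 and 2432 bases long, reads outside these exons can also separate them.

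Lactate dehydrogenase interconverts pyruvate and lactate. Ldhb (chr6:142490249-142507957), the heart subunit, was at 160, 195 and 149 CPM in CTL and at 1251, 1613 and 352 CPM in RUNX1 FB-KO. All RUNX1 FB-KO libraries were above CTL, a log2 fold change of 2.67 ± 0.55 (SE; edgeR adjusted p = 0.0682). Ldha (chr7:46841475-46855627), the muscle subunit that also dominates in glycolytic cells, was at 573, 414 and 457 CPM in CTL and at 726, 956 and 614 CPM in RUNX1 FB-KO, also above CTL throughout, a log2 fold change of 0.67 ± 0.27 (SE; edgeR adjusted p = 0.143). The ratio of Ldhb to Ldha was 0.366, 0.62 and 0.429 in CTL and 2.27, 2.22 and 0.767 in RUNX1 FB-KO. Ldha was the more abundant subunit per length in all CTL libraries and in RUNX1 FB-KO replicate 3, and Ldhb in RUNX1 FB-KO replicates 1 and 2.

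The promoters of the mutase and lactate dehydrogenase pairs are shown as examples of pairs whose 2 members stood apart in the ratios. Other pairs had wider mean log2 differences, such as 3.40 for Slc16a1 to Slc16a3 and 2.97 for Eno3 to Eno1. Each is the 250 bases before a RefSeq start of the gene (GRCm38.p6), printed on the gene's strand. They are Pgam1 at chr19:41911621-41911870 (plus), Pgam2 at chr11:5803797-5804046 (minus), Ldha at chr7:46845554-46845803 (plus, inside the longer GENCODE gene) and Ldhb at chr6:142507958-142508207 (minus). Ldha has another RefSeq start, which is not printed. Capitals mark ACGTG, the core of the hypoxia response element, on either strand, where it reads CACGT on the other strand.
Pgam1 promoter: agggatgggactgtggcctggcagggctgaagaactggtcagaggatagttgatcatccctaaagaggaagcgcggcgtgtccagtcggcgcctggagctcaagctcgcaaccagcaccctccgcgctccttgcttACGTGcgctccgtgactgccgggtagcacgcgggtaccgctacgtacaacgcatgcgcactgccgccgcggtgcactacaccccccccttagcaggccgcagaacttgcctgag
Pgam2 promoter: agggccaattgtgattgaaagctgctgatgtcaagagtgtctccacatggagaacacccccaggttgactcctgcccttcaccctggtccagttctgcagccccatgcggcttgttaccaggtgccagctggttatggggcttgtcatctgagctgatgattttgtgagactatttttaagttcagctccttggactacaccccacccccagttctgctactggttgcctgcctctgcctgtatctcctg
Ldha promoter: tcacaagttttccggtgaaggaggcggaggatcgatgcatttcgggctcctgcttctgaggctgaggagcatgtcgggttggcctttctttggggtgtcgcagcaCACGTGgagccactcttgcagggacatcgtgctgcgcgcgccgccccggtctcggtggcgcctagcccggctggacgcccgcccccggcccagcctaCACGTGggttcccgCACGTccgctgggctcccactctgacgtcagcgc
Ldhb promoter: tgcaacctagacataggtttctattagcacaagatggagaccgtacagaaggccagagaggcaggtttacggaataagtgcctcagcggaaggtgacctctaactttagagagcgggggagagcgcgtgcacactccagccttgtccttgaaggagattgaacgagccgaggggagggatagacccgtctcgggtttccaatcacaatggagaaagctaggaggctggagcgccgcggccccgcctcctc

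In these windows ACGTG had 5 matches for Ldha, counting CACGTG once on each strand, 1 for Pgam1 and 0 for Pgam2 and Ldhb. The window of the other Ldha start (chr7:46846832-46847131, from 250 bases before to 50 after it) had 0, so the count for Ldha depends on the start chosen. Across the RefSeq windows of 250 bases before to 50 after each start, 29 of the 33 members had an entry, with 47 windows. ACGTG was in 21 of the 47 (44.7%), from 17 genes, against 6447 of 32851 windows of all genes (19.6%). TGTGGT, a core RUNX site, was in 6 of the 47 (12.8%), against 5506 of all windows (16.8%). The genes with ACGTG included both muscle or heart isoforms (Hk2, Pfkm, Pfkfb2, Slc16a1) and ubiquitous or inducible ones (Slc2a1, Pfkfb3, Pgam1, Ldha, Slc16a3). Eno1, Eno3 and Pfkp were not among them, so the contrast within the printed pairs was not shared by all pairs.

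Lactate crosses membranes through monocarboxylate transporters. Slc16a1 (MCT1, chr3:104638668-104658462), the carrier of oxidative tissues, was at 61.7, 84.3 and 58.0 CPM in CTL and at 343, 426 and 127 CPM in RUNX1 FB-KO, all above CTL, with a log2 fold change of 2.13 ± 0.44 (SE; edgeR adjusted p = 0.0682). Slc16a3 (MCT4), the export carrier of glycolytic cells, was at 63.8, 33.2 and 51.0 CPM in CTL and at 12, 11.4 and 47.6 CPM in RUNX1 FB-KO. It overlapped through CTL replicate 2 and RUNX1 FB-KO replicate 3, with a log2 fold change of −1.05 ± 0.58 (SE; edgeR adjusted p = 0.236) and −2.03 ± 0.28 without the latter library (edgeR adjusted p = 0.00112). Without CTL replicate 1 instead, the Slc16a3 value was −0.82 ± 0.68 (edgeR adjusted p = 0.457). The ratio of Slc16a1 to Slc16a3 spanned the widest difference of the 12 pairs: 0.399, 1.15 and 0.472 in CTL against 12.5, 19.3 and 1.05 in RUNX1 FB-KO, a mean log2 difference of 3.40, with RUNX1 FB-KO replicate 3 below CTL replicate 2. This difference was 4.70 without RUNX1 FB-KO replicate 3 and 2.59 without its replicate 2. Slc16a7 (MCT2), a high-affinity carrier, was at 9.69, 7.95 and 8.70 CPM in CTL and at 9.82, 11.9 and 8.27 CPM in RUNX1 FB-KO. Its groups overlapped, and its log2 fold change of 0.18 was −0.31 with library size alone and −0.78 with an offset for effective length.

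Of the side branches, Bpgm makes 2,3-bisphosphoglycerate in red blood cells. It was at 17.8, 24.0 and 32.1 CPM in CTL and at 19.4, 27.0 and 30.3 CPM in RUNX1 FB-KO, with a log2 fold change of 0.05 that was −0.38 with library size alone, −0.02 with upper quartile scaling and −0.13 without CTL replicate 1. The 6 erythroid markers summed to 810, 2565 and 4459 CPM in CTL and to 535, 1656 and 3789 CPM in RUNX1 FB-KO, in the same order of libraries as Bpgm within each group, and their part was not tested. Gpd1, cytosolic glycerol 3-phosphate dehydrogenase, was at 20.8, 38.4 and 31.1 CPM in CTL and at 76.5, 84.1 and 40.7 CPM in RUNX1 FB-KO, above CTL throughout, with a log2 fold change of 1.16 ± 0.33 (SE; edgeR adjusted p = 0.0873). With library size alone the groups of Gpd1 overlapped, and its log2 fold change was 0.62. Gpd1 is also abundant in fat, and the 5 adipocyte markers summed to 0.4, 314 and 282 CPM in CTL and to 3.54, 116 and 38.5 CPM in RUNX1 FB-KO. Their part was not tested. Gpd2, the mitochondrial enzyme of the glycerol phosphate shuttle, was at 16.9, 19.1 and 17.0 CPM in CTL and at 20.4, 24.0 and 16.5 CPM in RUNX1 FB-KO, overlapping, with a log2 fold change of 0.20 that was −0.30 with library size alone. The ratio of Gpd1 to Gpd2, a cytosolic against a mitochondrial enzyme rather than a muscle against a ubiquitous one, was 2.60, 4.24 and 3.13 in CTL and 7.91, 7.42 and 5.23 in RUNX1 FB-KO, without overlap.

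Muscle isoforms are shared by heart and skeletal muscle, so markers of both were set beside them. Eno3 and the cardiomyocyte sum had the same 3 lowest libraries, all CTL, and the same 2 highest, RUNX1 FB-KO replicates 1 and 2. Any gene above CTL throughout, with RUNX1 FB-KO replicate 3 nearest to CTL, has this order. Within CTL the order differed. Eno3 was at 169, 152 and 136 CPM, highest in replicate 1, and the sum at 11192, 12378 and 9603 CPM, highest in replicate 2. The 7 skeletal muscle markers summed to 20.6, 31.9 and 23.1 CPM in CTL and to 3.67, 12.3 and 11.7 CPM in RUNX1 FB-KO. Of the defining fast myosins, Myh4 was at no more than 1.21 CPM in any library and Myh1 at no more than 7.01 CPM. The 6 endothelial markers summed to 940, 909 and 831 CPM in CTL and to 993, 930 and 945 CPM in RUNX1 FB-KO. In every RUNX1 FB-KO library 1 of the 6 was above CTL and 1 was below, beside 20.2% and 18.8% of all genes tested. The one above, Kdr, was at 77.3, 77.1 and 56.3 CPM in CTL and at 226, 210 and 124 CPM in RUNX1 FB-KO. The part of cell type content in any isoform ratio was not tested.

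**Figure D4:**
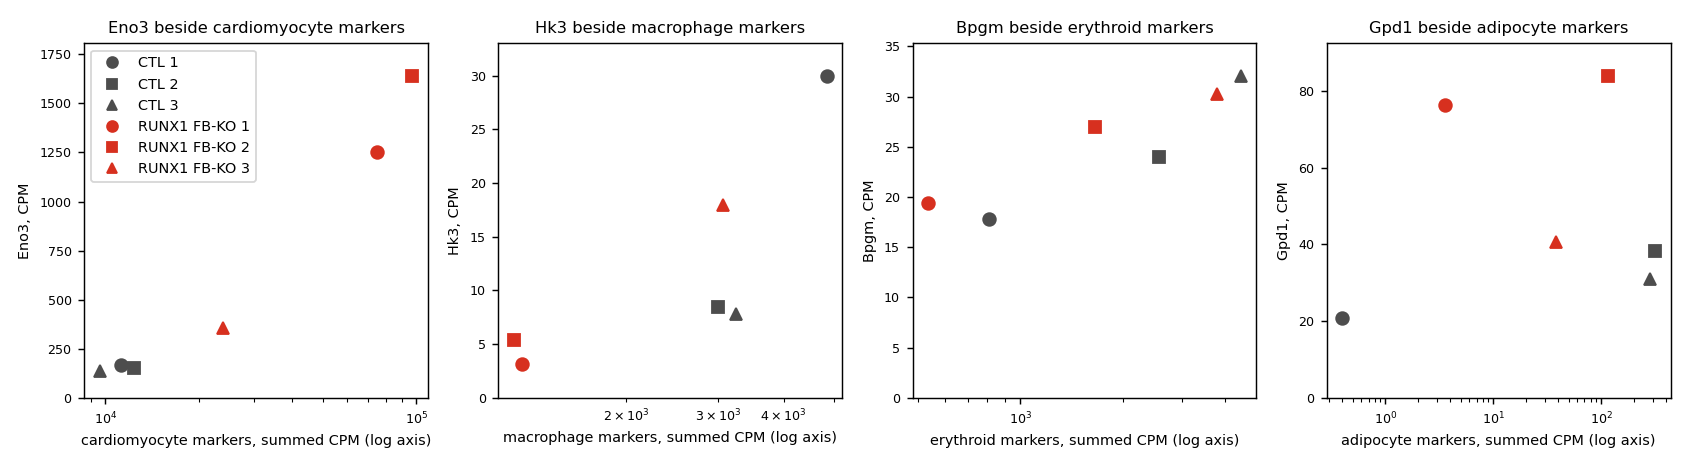
CPM of Eno3, Hk3, Bpgm and Gpd1 in each of the 6 libraries, against the summed CPM of the cardiomyocyte, macrophage, erythroid and adipocyte markers on a log axis. Eno3 is highest where the cardiomyocyte sum is highest, at 75055 and 97263 CPM in RUNX1 FB-KO replicates 1 and 2, and RUNX1 FB-KO replicate 3 lies nearer to the CTL libraries.

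Summed over the isoforms of a step, the totals were higher in RUNX1 FB-KO without overlap for 8 of the 11 steps. Each of these had the smallest p the exact permutation test allows, 0.1. Among single genes, 20.2% of all tested lay above CTL in this way. With library size alone, 6 steps were higher without overlap, against 10.8% of single genes, and the totals of phosphoglycerate mutase and enolase overlapped as well. The totals contain the members already described, so they are not a separate result. Enolase totals were 715, 459 and 553 CPM in CTL against 1434, 1893 and 739 CPM in RUNX1 FB-KO. Hexokinase totals were 269, 233 and 241 CPM in CTL against 518, 596 and 336 CPM in RUNX1 FB-KO. Totals of the bifunctional regulators, of pyruvate kinase and of the glycerol phosphate dehydrogenases overlapped. All 33 members together made up 1.02%, 0.822% and 0.889% of the estimated reads in CTL and 1.27%, 1.47% and 1.07% in RUNX1 FB-KO.

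Genes of 5 neighbouring lists were read from the same fit, and 0 of them passed edgeR's adjusted threshold. Among 17 glycogen genes tested, 14 were higher and 1 lower at an unadjusted edgeR p under 0.05, with a median log2 fold change of 1.21, where 19.3% of all genes were higher and 13.1% lower and the median was −0.06. Pygm, the muscle glycogen phosphorylase, was at 141, 210 and 148 CPM in CTL and at 1189, 1561 and 358 CPM in RUNX1 FB-KO. Ppp1r3b, a subunit that targets a phosphatase to glycogen, and Ugp2, which makes UDP-glucose, were also above CTL in every RUNX1 FB-KO library, with log2 fold changes of 1.35 and 1.30. All 7 genes of the malate-aspartate shuttle, which carries the electrons of glycolytic NADH into mitochondria, were above CTL throughout, as were 20.2% of all genes tested, with a median of 2.19. The shuttle's exchanger Slc25a13 had a log2 fold change of 2.25, the aminotransferase Got2 had 2.19 and the malate dehydrogenase Mdh1 had 2.33.

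The pentose phosphate pathway, which makes NADPH and ribose, had 4 of 7 genes lower and 1 higher at an unadjusted edgeR p under 0.05, with a median of −0.61 (13.1% of all genes lower, 19.3% higher). G6pdx, its first enzyme, was at 43.9, 36.3 and 37.4 CPM in CTL and at 14.1, 15.5 and 27.9 CPM in RUNX1 FB-KO, a log2 fold change of −1.03 ± 0.28 (SE; edgeR adjusted p = 0.0801). Tkt, transketolase, and Taldo1, transaldolase, were below CTL in every RUNX1 FB-KO library, with log2 fold changes of −0.99 and −0.61. Among 20 further glycolytic and sugar-feeding genes tested, 7 were higher and 4 lower on the same measure, with a median of −0.09. Tigar, a fructose bisphosphatase, and Ldhd, the D-lactate dehydrogenase, had log2 fold changes of 1.73 and 2.53.

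Of 11 upstream regulators, 4 were higher and 0 lower at an unadjusted edgeR p under 0.05, with a median of 0.56, beside 19.3% of all genes higher and 13.1% lower. Ppargc1a, a coactivator of mitochondrial genes, was at 11.6, 28.5 and 17.0 CPM in CTL and at 185, 323 and 46.9 CPM in RUNX1 FB-KO, a log2 fold change of 3.28 ± 0.71 (SE; edgeR adjusted p = 0.0682). Mlxipl, a glucose-responsive transcription factor, and Epas1, a hypoxia-inducible factor subunit, had log2 fold changes of 1.87 and 1.33 and were above CTL in every RUNX1 FB-KO library.

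The mean log2 difference of all 12 isoform ratios was above 0 with each library left out in turn and within each sex, where 1 group has a single library (CTL replicate 1 among females, RUNX1 FB-KO replicate 1 among males), so that these values are a description with no test. For Ldhb to Ldha the mean log2 difference was 1.77 and ranged from 1.51 to 2.29 with 1 library left out. It was 1.84 within females and 2.13 within males. For Pgam2 to Pgam1 the difference was 2.83 and ranged from 2.39 to 3.65, and for Eno3 to Eno1 it was 2.97 and ranged from 2.53 to 3.81.

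**Figure D5:**
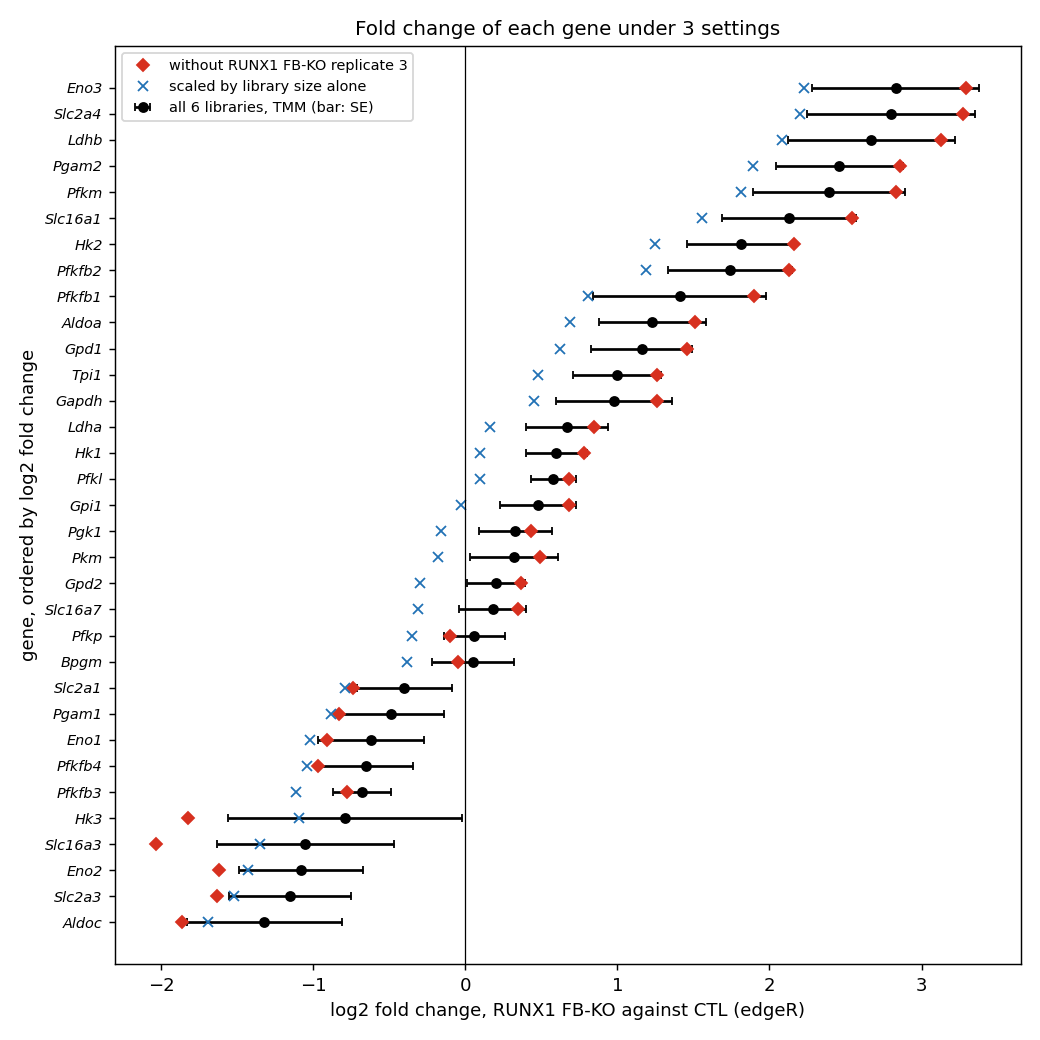
Log2 fold change of each member, RUNX1 FB-KO against CTL, from edgeR with all 6 libraries (black, bars of 1 SE), without RUNX1 FB-KO replicate 3 (red) and with library size alone (blue crosses). Eno3, Slc2a4, Ldhb, Pgam2, Pfkm, Slc16a1, Hk2 and Pfkfb2 lie right of 0 in all 3 settings, and Gpi1, Pgk1, Pkm, Gpd2, Slc16a7, Pfkp and Bpgm lie on both sides of it.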

How the data were processed

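The authors deposited 1 table per library with estimated counts, TPM and effective length in bases for each transcript. The tools named were Salmon 1.5.2 and DESeq2 1.44.0, on mm10 (GRCm38), per the submitters' processing notes. Their annotation release is not given in the sources used here. Both the members and the lists were chosen with earlier results of these data known.

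Estimated counts, as deposited by the authors, were summed per gene with GENCODE M21 on GRCm38 (115977 of 116546 transcripts matched, and the unmatched held 0.078% to 0.102% of reads) and rounded. Genes passing filterByExpr were fitted across all 6 libraries with edgeR 4.0.16 (quasi-likelihood test, TMM factors 0.7316 to 1.214, Benjamini-Hochberg adjustment, threshold 0.05) in R 4.3.3. CPM are TMM-scaled, and SE is the log2 fold change over the root of F. The gene-level fits were also run on simulated counts with known changes, and the outcome is not given here. Libraries held 16598561 or more reads, and the SE of a member's log2 fold change ranged from 0.15 (Pfkl) to 0.77 (Hk3).

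Isoform ratios used summed reads per effective length and an exact permutation test over libraries. All 33 members are named, those in isoform pairs in full, and of each other list the 3 genes with the smallest p, of which 1 is not reported here. Alternatives were scaling, filters, covariates, an effective-length offset, copies, DESeq2 1.42.0, limma 3.58.1 (voom) and leaving out each library. Promoter windows came from RefSeq (GRCm38.p6).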

Additional observations from a re-analysis of the deposited data

How the results depend on the processing

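Of the 33 members, 25 kept the sign of their log2 fold change under every alternative run, and the 12 isoform ratios kept theirs. The count of genes called was 0 with all 6 libraries in edgeR and moved to 889 without the filter on low counts, 2787 with DESeq2 on all genes and 3018 with DESeq2 on the filtered genes, and members called moved from 0 to 8, 17 and 17. Leaving out 1 library gave 0 to 6947 genes and 0 to 26 members, with the highest counts without RUNX1 FB-KO replicate 3, and a member median of 0.31 to 0.68. Library size alone turned the member median to −0.03 and Gpi1 to −0.03, Pfkp to −0.35, Pgk1 to −0.16, Pkm to −0.18, Slc16a7 to −0.31, Bpgm to −0.38 and Gpd2 to −0.30. Upper quartile scaling turned Pfkp to −0.00 and Bpgm to −0.02, sex as a covariate turned Pfkp to −0.04, and the effective-length offset turned Slc16a7 to −0.78. With 1 library left out, Hk3 ranged from −1.82 to 0.13, Bpgm from −0.13 to 0.29 and Pfkp from −0.10 to 0.19. The cause was not tested. Deviations of same-numbered samples correlated at −0.051, 0.113 and 0.081, and not every sample correlated best with its own number. With 3 samples a group, these values cannot settle whether the replicate numbers pair the samples. With the replicate block, 0 genes and 0 members were called and the member median was 0.46. With 3 libraries a group, the exact permutation test cannot pass 0.05. Reads of annotated copies came to at most 2.54% of a member's reads, for Pgam1.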
